A study of Mus musculus with 4 samples.

Results

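Collagen genes other than those that characterise cartilage and tendon were followed in 4 RNA-seq libraries of sorted mouse hindlimb cells. They were taken from the gene table by symbol: 44 of its 25239 genes carry a name of the form Col, a type number, a and a chain number. Col2a1, Col9a1, Col9a2, Col9a3, Col11a1, Col12a1 and Col14a1, collagens of cartilage and of tendon sheaths, were set aside, which left 37 genes. Col10a1, Col11a2 and Col27a1, also known from cartilage, were kept. The hindlimb buds came from FVB embryos at embryonic day 11.5, given as wild-type, and every embryo carried a reporter at the H11 safe-harbour locus named hsp68-hZRS(404G>A)-mCherry, that is, a human ZRS limb enhancer with a base change ahead of an hsp68 minimal promoter and mCherry, a red fluorescent protein. Shh is the gene that the ZRS controls in limbs, and both populations compared carried the variant reporter. Cells were dissected, dissociated and sorted into an anterior population that was mCherry-positive and a central population that was mCherry-negative, with 2 libraries of each. The comparison asks which genes set apart anterior cells with reporter activity from central cells without it. Position in the limb bud and reporter state change together between the groups, so their effects cannot be told apart.

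Collagens are triple-helical proteins built from chains that each have their own gene, and the chains that a cell makes together decide which trimers it can assemble. Fibrillar collagens such as types I, III and V form the cables of loose and dense connective tissue, type IV forms the sheet-like network of basement membranes, type VI forms beaded filaments around cells, and other members span the plasma membrane, sit on fibril surfaces or carry an anti-angiogenic fragment. In an early limb bud the mesenchyme lays down a loose matrix under an ectodermal basement membrane before cartilage, tendon and muscle form.

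The 37 genes are spread over the genome with a few close pairs, and the stretches ahead of their starts differ widely in base composition. RefSeq promoter windows of the GRCm38.p6 assembly, from 250 bases before to 50 bases after the annotated start, were at hand for 32 of the 37. Shown here are the 150 bases before the start of 5 genes that the results turn on, 4 that were lower in the anterior cells and Col13a1, which was higher. Each is written 5′ to 3′ on the strand of its gene, with capitals marking a TATA box (TATAAA) or a GC box (GGGCGG) read on either strand; CCAAT was searched too and is in none of these stretches.
Col3a1, chr1:45311388-45311537, plus strand: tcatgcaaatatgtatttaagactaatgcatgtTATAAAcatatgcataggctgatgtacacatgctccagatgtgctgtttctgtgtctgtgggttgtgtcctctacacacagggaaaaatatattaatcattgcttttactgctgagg
Col5a1, chr2:27886275-27886424, plus strand: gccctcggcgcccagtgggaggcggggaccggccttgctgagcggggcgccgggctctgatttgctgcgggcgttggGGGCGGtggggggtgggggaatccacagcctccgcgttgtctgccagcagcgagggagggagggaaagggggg
Col23a1, chr11:51289770-51289919, plus strand: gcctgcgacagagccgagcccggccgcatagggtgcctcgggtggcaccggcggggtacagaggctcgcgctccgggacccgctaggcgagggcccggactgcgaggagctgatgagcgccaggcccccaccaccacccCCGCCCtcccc
Col8a1, chr16:57754738-57754887, minus strand: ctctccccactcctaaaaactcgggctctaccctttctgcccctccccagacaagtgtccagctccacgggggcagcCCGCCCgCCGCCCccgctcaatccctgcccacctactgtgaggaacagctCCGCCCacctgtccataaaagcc
Col13a1, chr10:61979109-61979258, minus strand: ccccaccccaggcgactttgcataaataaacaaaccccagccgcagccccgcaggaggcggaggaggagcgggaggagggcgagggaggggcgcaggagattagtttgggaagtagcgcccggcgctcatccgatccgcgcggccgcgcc

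The Col3a1 stretch is AT-rich, with 37.3% G and C, and holds a TATA box. The stretches of Col5a1 and Col23a1 have 74.7% and 76.7% G and C and a GC box each, that of Col8a1 has 64.7%, and that of Col13a1 has 68.7% and none of the motifs searched, although the full Col13a1 window does hold TATAAA. Over the whole 300-base windows, read on both strands, TATAAA was found in 5 of the 32 collagen genes (15.6%), against 15.7% of 27025 genes with a window. CCAAT was found in 11 (34.4%), against 41.1%, and GGGCGG in 20 (62.5%), against 38.2%. Among the 13 genes with a window that were lower in the anterior cells, 3 held TATAAA, 3 CCAAT and 9 GGGCGG. Among the 3 that were higher, the numbers were 1, 2 and 2. The genes with GGGCGG among these are Col4a1 and Col4a2, whose windows overlap and share a GC box. A match describes the letters of the window and is not evidence that a factor binds there.

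Library totals ran from 30080925 to 33257383 counts, and levels are given as CPM, which puts libraries of different totals on 1 scale with TMM factors. The 3 counts used as a limit for genes at 0 equal 0.0899 to 0.102 CPM and cover counting error only. Genes that mark limb mesenchyme were abundant in all 4 libraries. Prrx1 stood at 717, 676, 681 and 641 CPM in the order anterior 1, anterior 2, central 1 and central 2, the order used throughout. Of the 7 genes in that list, 4 passed edgeR's test at an adjusted p of 0.05 (57.1%, against 22.9% of all genes tested). Prrx2 and Twist1 were higher in the anterior libraries, and Pdgfra and Twist2 were lower. The populations also differed in the markers of other cells. Of 10 ectoderm genes, 9 fell in the anterior libraries, as did 7 of 10 endothelial genes, all 7 myogenic genes and 4 of 5 tested tendon genes, while all 8 tested red blood cell genes rose. The summed level was 10.1, 10.9, 49.8 and 157 CPM for the ectoderm list, 11.2, 14.3, 34.0 and 47.8 for the endothelial list, 4.17, 2.35, 143 and 142 for the myogenic list and 24.8, 26.8, 132 and 122 for the tendon list. Pax7 and Myog had no count in either anterior library. Smaller numbers passed in the lists for macrophages (2 of 5 tested higher), Schwann cells (2 of 3 lower) and cells around vessels (1 of 4 lower). The same held for osteoblasts (1 of 5 lower) and dissociation stress (1 higher and 2 lower of 8). Over all genes tested, 10.7% were higher and 12.3% lower. The 25.0% called for cells around vessels and the 20.0% for osteoblasts are near the 22.9% of all genes. Kera in the tendon list and Sox10 and Foxd3 in the Schwann list had no anterior count either. For the blood list the sum was 3294, 8400, 5.98 and 9.48 CPM. The part of these cells in the collagen differences below was not tested, and in bulk RNA fewer cells of a type and less RNA per cell cannot be told apart. The labels do not say whether the libraries came from separate embryos or pools, so p-values measure only the spread between these samples.

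Of the collagen genes that the symbol rule retained, those that changed were mostly lower in the anterior cells, among them Col3a1, Col1a1, Col5a1 and Col23a1. The lower genes include Col11a2 and Col27a1, which are also known from cartilage. Of the 37, 31 passed the filter on low counts, and 19 of these passed edgeR's quasi-likelihood test at an adjusted p of 0.05, 14 of them lower and 5 higher in the anterior libraries. That is 61.3% of those tested, 45.2% lower and 16.1% higher, where over all 14610 genes tested 22.9% passed, 12.3% lower and 10.7% higher. At least 2-fold and called were 12 members (38.7%, against 9.12% of all genes). Of these 11 were lower (35.5%, against 6.78%) and 1 was higher (3.23%, against 2.34%). The libraries of the groups did not overlap for 26 members (83.9%, against 63.5% of all genes). The median log2 difference, anterior minus central, was -0.66 over the 31 members, also with Col6a6, which had no anterior count, set at its bound, and -0.01 over all genes tested. Without anterior library 2, 14 members were called lower, with Col4a6 lost and Col1a2 gained, and 1 was called higher, Col13a1. Without central library 2, 17 were called lower and 5 higher. The 7 cartilage and tendon collagens set aside all fell, with a median of -2.08. Counts of the members that passed describe the tested ones only, because Col6a6 and Col28a1 passed the filter only through the central libraries. Col6a6 is among the 19 called, the 14 lower and the 11 lower by at least 2-fold.

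**Figure D1:**
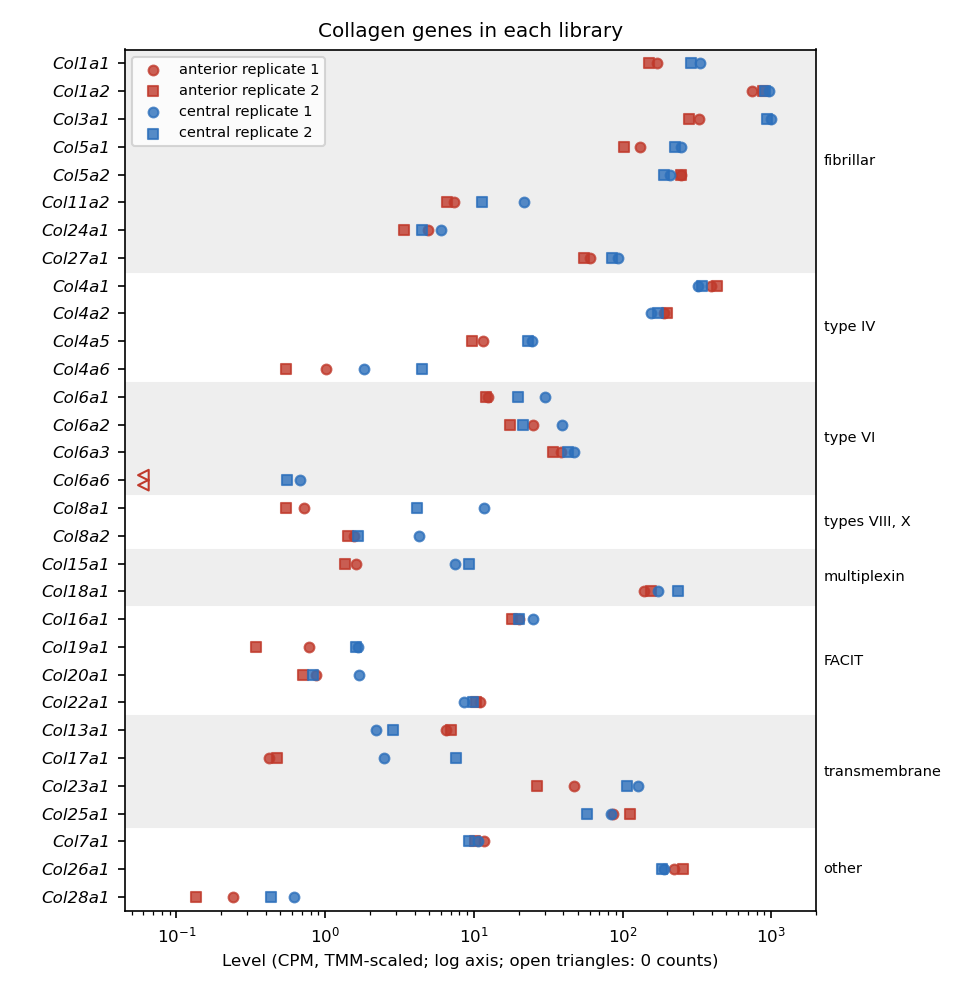
Level of each of the 31 tested collagen genes in every library, as TMM-scaled CPM on a log axis, with anterior and central libraries in different colours and genes grouped by class. Col1a2 stands highest in the anterior libraries, Col1a2 and Col3a1 in the central ones, and Col8a1, Col15a1 and Col17a1 show wide gaps between the populations.

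**Figure D2:**
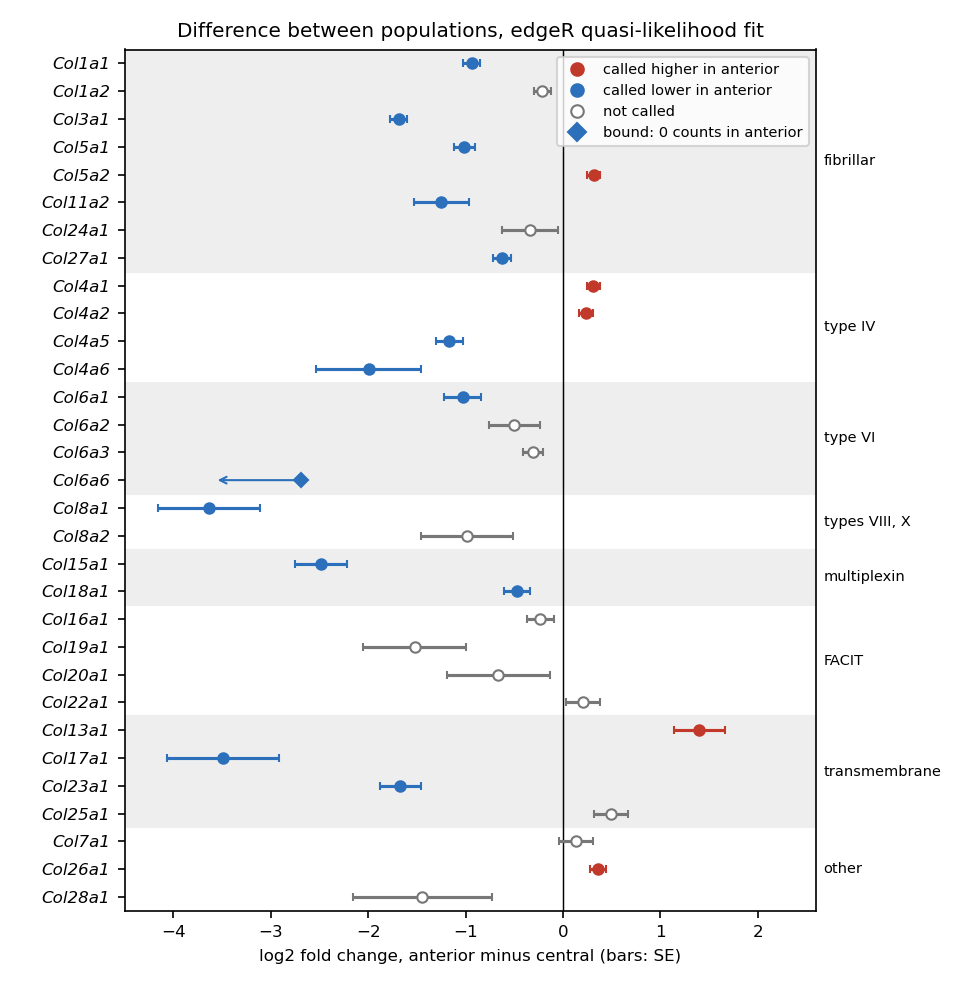
Log2 fold change of each tested collagen gene, anterior minus central, with its standard error and colour for the call at an adjusted p of 0.05. The 14 called falls reach from Col18a1 at -0.47 to Col8a1 at -3.63, with Col6a6 drawn as a bound because it had no anterior count, and the 5 called rises reach from Col4a2 at 0.24 to Col13a1 at 1.40.

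The fibrillar collagens changed unevenly: Col3a1, Col1a1, Col5a1, Col11a2 and Col27a1 fell in the anterior cells, Col5a2 rose, and neither Col1a2 nor Col24a1 passed the test. The median over the 8 tested fibrillar genes was -0.78. Col3a1 encodes the chain of the homotrimeric type III collagen of extensible tissues and lies at chr1:45311538-45349706 on the plus strand, with 51 exons in its longest coding transcript. Its level was 326.5, 278.6, 1004 and 943 CPM. Both anterior libraries lay far below both central ones, at 302.6 ± 33.9 against 973 ± 43.4 CPM (SD, n = 2 each), a 3.22-fold difference (log2 -1.69 ± 0.09 SE, edgeR adjusted p = 5.4e-06). This was the smallest adjusted p among the members.

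Type I collagen, the main fibre of skin and bone, is a trimer of 2 alpha 1 chains and 1 alpha 2 chain. Col1a1 (chr11:94936224-94953042, plus strand) stood at 172, 152, 329 and 290.3 CPM. It was lower in both anterior libraries, at 162 ± 14.3 against 309.8 ± 27.6 CPM (SD, n = 2 each), a 1.92-fold difference (log2 -0.94 ± 0.09, edgeR adjusted p = 0.000121). Its partner Col1a2 (chr6:4504814-4541544, plus strand) had 746, 878, 964 and 914 CPM. The groups did not overlap for Col1a2, but the difference of -0.21 ± 0.08 did not pass (edgeR adjusted p = 0.11). It passed narrowly without anterior library 2 (adjusted p just under 0.05) and without central library 2 (adjusted p = 0.0276), while without anterior library 1 the difference was -0.09 (adjusted p = 0.612).

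Type V collagen, a minor partner that sets the width of type I fibrils, is made mostly of alpha 1 and alpha 2 chains, and its genes went in opposite directions. Col5a1 (chr2:27886425-28039514, plus strand) stood at 132, 103, 248 and 225 CPM. It fell 2.02-fold in the anterior cells, without overlap (log2 -1.01 ± 0.11, edgeR adjusted p = 0.000347), and genes annotated on the opposite strand share 212 of its exon bases. Col5a2 stood at 249, 249, 209 and 190.5 CPM. It rose slightly, to 249 ± 0.157 from 200.0 ± 13.3 CPM (SD, n = 2 each; log2 0.32 ± 0.07, edgeR adjusted p = 0.0111), and the call was lost without anterior library 1 (adjusted p = 0.0604) or anterior library 2 (0.0691). Col5a2 (chr1:45374321-45503282, minus strand) is the neighbour of Col3a1, tail to tail across 24614 bases, and the neighbours moved in opposite directions.

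Col27a1, a fibrillar collagen known from growing cartilage, stood at 60.7, 54.7, 93.7 and 84.4 CPM and fell 1.54-fold (log2 -0.63 ± 0.09, edgeR adjusted p = 0.00145). Col11a2, a chain of the type XI collagen of cartilage fibrils that the symbol rule retains, stood at 7.35, 6.58, 21.8 and 11.3 CPM. The central libraries differed from each other more than the anterior ones did, and the fall of -1.25 ± 0.28 (edgeR adjusted p = 0.0141) became -0.69 without central library 1. The chondrogenic marker list summed to 224, 171, 477 and 409 CPM, with 3 of its 6 tested genes lower in the anterior libraries and Matn1 without an anterior count. Its part in the levels of Col27a1 and Col11a2 was not tested. Col24a1, a minor fibrillar collagen, ranged from 3.38 to 6.01 CPM and its groups overlapped.

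Levels per kilobase of the longest coding transcript allow the chains to be set beside each other. Col1a2 had the largest mean level per kilobase of the members, and its share of the summed collagen level per kilobase was 25.3, 28.1, 23.7 and 23.8%. The share of Col3a1 was 10.6, 8.56, 23.7 and 23.6%. In the anterior libraries the larger shares went instead to Col26a1, with 14.7, 16.1, 9.09 and 9.35%, and to Col4a1, with 10.9, 11.1, 6.39 and 7.21%. Fibrillar genes together held 52.6, 51.0, 64.9 and 63.8%, and type IV genes 16.5, 16.6, 10.1 and 11.6%. The members took 0.293, 0.295, 0.421 and 0.397% of all counts, or 2922, 3028, 4148 and 3943 CPM in sum. The order of some genes depends on the length used: Col26a1 ranked 3 by its longest coding transcript of 2.72 kb and 6 by the 8.18 kb that all its exons cover.

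**Figure D3:**
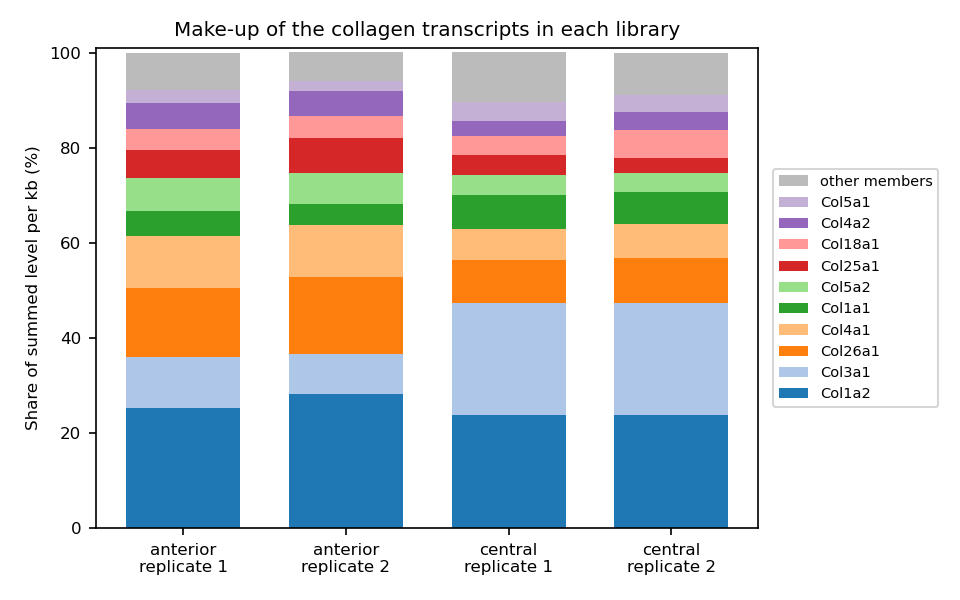
Share of the summed collagen level per kilobase of transcript taken by the 10 members with the highest mean level per kilobase and by the others together, in percent, for each of the 4 libraries. Col3a1 takes 10.6 and 8.56% in anterior and 23.7 and 23.6% in central cells.

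Ratios between chains, per kilobase and without a test, separated the pairs into those that held their proportion and those that did not. Col4a1 to Col4a2 was 2.04, 2.10, 2.02 and 1.92, within a narrow range in all 4 libraries. Col5a1 to Col5a2 was 0.417, 0.325, 0.933 and 0.930. Col1a1 to Col1a2 was 0.208, 0.156, 0.308 and 0.287. The latter ratios were lower in both anterior libraries than in both central ones. With the length covered by all exons in place of the transcript length, Col1a1 to Col1a2 was 0.436, 0.327, 0.647 and 0.602. The level of the ratio thus depends on the length. A change of length scales a ratio alike in every library, so its order across libraries could not change. Col3a1 to Col1a2 was 0.421, 0.305, 1.0 and 0.992, and 0.554, 0.402, 1.32 and 1.31 with the exon length, while Col8a1 to Col8a2 was 0.392, 0.323, 2.32 and 2.11. The ratios of Col4a5 to Col4a6 (11.5, 18.2, 13.8 and 5.26) and of Col6a3 to Col6a2 (0.605, 0.754, 0.469 and 0.788) overlapped between the groups, and those of Col6a1 to Col6a2 (0.478, 0.660, 0.745 and 0.897) did not.

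**Figure D4:**
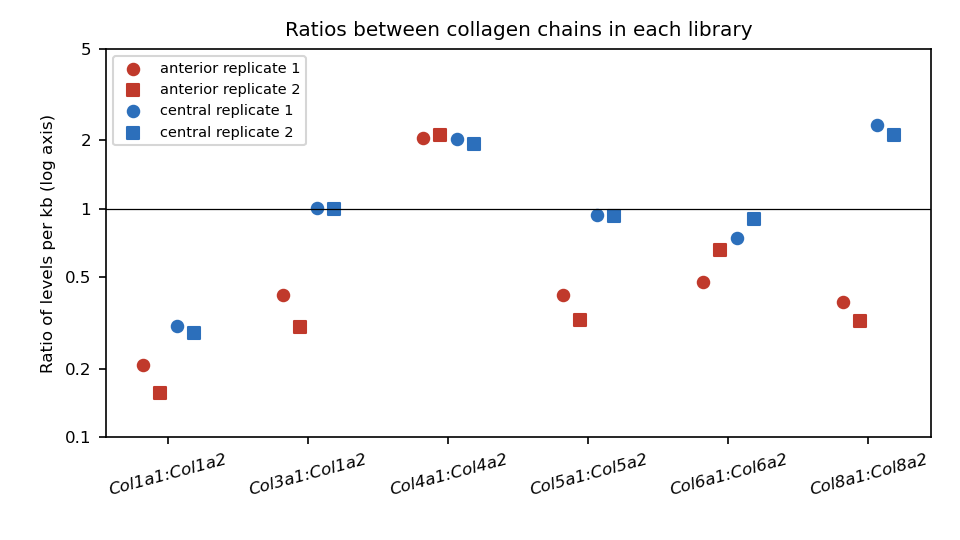
Ratio of 2 collagen chains per kilobase of transcript in each library, on a log axis, for 6 pairs of genes. Col4a1 to Col4a2 lies between 1.92 and 2.10 in all 4 libraries, while Col5a1 to Col5a2 is 0.417 and 0.325 in the anterior and 0.933 and 0.930 in the central libraries.

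Type IV collagen moved in opposite directions by gene pair: Col4a1 and Col4a2 rose in the anterior cells, and Col4a5 and Col4a6 fell. The alpha 1 and alpha 2 chains form the ubiquitous basement membrane network, while the alpha 5 and alpha 6 chains belong to the networks of particular epithelia and muscle. Col4a1 (chr8:11198423-11312826, minus strand) stood at 396, 429, 322 and 342 CPM. It rose 1.24-fold, to 412 ± 22.9 from 332 ± 14.4 CPM (SD, n = 2 each; log2 0.31 ± 0.07, edgeR adjusted p = 0.0117). Col4a2 (chr8:11312805-11449287, plus strand) stood at 189.8, 199.5, 156 and 174 CPM and rose 1.18-fold (log2 0.24 ± 0.07, edgeR adjusted p = 0.0486). Neither gene overlapped between the groups. Without anterior library 2 the adjusted p was 0.129 for Col4a1 and 0.277 for Col4a2, and Col4a2 also lost its call without anterior library 1 (0.111) or central library 1 (0.105), and with library size alone in place of TMM scaling (0.0733). Col4a1 and Col4a2 were higher in the anterior libraries, where the endothelial and ectoderm lists were lower. The part of endothelial and ectodermal cells in the Col4a1 and Col4a2 levels was not tested.

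Col4a1 and Col4a2 are transcribed away from each other, and their first annotated exons share 22 bases at chr8:11312805-11312826. The bases are shown because the pair rose together, with capitals marking the GC box on each strand.
Col4a2 strand: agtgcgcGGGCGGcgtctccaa
Col4a1 strand: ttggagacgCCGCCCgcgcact

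The promoter windows of both genes hold CCAAT as well as GGGCGG. The windows overlap at these shared bases, so the GC box shown is counted for both genes. How reads on these shared bases were assigned to the genes is not given in the sources used here. Col4a5 (chrX:141475385-141689234, plus strand) and Col4a6 (chrX:141165403-141474076, minus strand) form a second head-to-head pair, 1308 bases apart. Col4a5 stood at 11.5, 9.78, 24.7 and 23.2 CPM and fell 2.25-fold without overlap (log2 -1.17 ± 0.14, edgeR adjusted p = 0.000528). Col4a6 stood at 1.02, 0.545, 1.82 and 4.48 CPM. Its fall of -2.0 ± 0.54 (edgeR adjusted p = 0.0284) rested on central library 2, which held 2.46 times the level of central library 1: without it the difference was -1.20 (adjusted p = 0.21). The call was also lost without anterior library 2 (adjusted p = 0.0847). The third head-to-head pair, Col4a3 and Col4a4, 71 bases apart, had at most 13 counts in any library and was not tested.

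Among the type VI genes, whose products form beaded filaments that tie cells to the matrix, Col6a1 and Col6a6 fell and Col6a2 and Col6a3 did not pass the test. Col6a1 stood at 12.4, 12.1, 30.2 and 20.0 CPM and was 2.04-fold lower in the anterior cells (log2 -1.03 ± 0.19, edgeR adjusted p = 0.00541). Col6a2, its obligate partner and neighbour on chromosome 10, stood at 25.1, 17.6, 39.0 and 21.4 CPM. The groups overlapped for Col6a2 (log2 -0.50 ± 0.26, edgeR adjusted p = 0.213). Without central library 2 it passed (adjusted p = 0.000441), and without central library 1 its adjusted p was 0.996. Col6a3, which encodes the long alpha 3 chain, stood at 38.8, 34.0, 46.8 and 43.2 CPM, and its difference of -0.31 ± 0.10 lay near the threshold (edgeR adjusted p = 0.0582). It passed in the fit without central library 2 (0.0292) and with upper-quartile scaling (0.0443), and without anterior library 2 its adjusted p was 0.366. Col6a6, an alternative to the alpha 3 chain, had 0, 0, 21 and 18 counts, or 0.682 and 0.556 CPM in the central libraries. Against a floor of 3 counts per library it was at least 6.45-fold lower in the anterior cells. Col6a6 passed the filter only through the central libraries, so its test is not used as support here. Both mates of a read pair may have been counted, and with a floor of 6 counts the bound is 3.23-fold.

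Several members with low levels had the widest gaps. Col8a1, a short-chain collagen of the subendothelial and corneal matrix, stood at 0.720, 0.545, 11.7 and 4.14 CPM. The central libraries were unequal, but each was well above both anterior ones, and Col8a1 fell 12.4-fold (log2 -3.63 ± 0.52, edgeR adjusted p = 0.00155). Without central library 1 the difference was -2.70. Its partner Col8a2 stood at 1.56, 1.43, 4.29 and 1.67 CPM and did not pass (log2 -0.99 ± 0.47, edgeR adjusted p = 0.173), although it did without central library 2 (0.0119). Without central library 1 the difference was -0.15 (adjusted p = 0.887).

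Both multiplexins, the basement membrane zone collagens that can release anti-angiogenic fragments, fell. Col15a1 stood at 1.62, 1.36, 7.50 and 9.30 CPM without overlap and fell 5.61-fold (log2 -2.49 ± 0.27, edgeR adjusted p = 0.000302). Col18a1, the precursor of endostatin, stood at 138, 155, 172 and 235 CPM. It fell by a smaller amount (log2 -0.47 ± 0.13, edgeR adjusted p = 0.0322), and central library 2 weighed on it: without that library the difference was -0.23. The call was lost without anterior library 1 (adjusted p = 0.0971) and under DESeq2's Wald test (0.166). The endothelial list, given above, was lower in both anterior libraries, and its part in the multiplexin levels was not tested.

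The transmembrane collagens Col17a1 and Col23a1 fell, Col13a1 rose, and Col25a1 did not pass. Col23a1 stood at 47.0, 26.8, 128 and 108 CPM and was 3.18-fold lower in the anterior cells, at 36.9 ± 14.3 against 118 ± 14.3 CPM (SD, n = 2 each; log2 -1.67 ± 0.21, edgeR adjusted p = 0.000822). Col17a1, a component of the hemidesmosomes of basal epidermis, stood at 0.420, 0.477, 2.50 and 7.63 CPM. Its 11.2-fold fall (log2 -3.49 ± 0.57, edgeR adjusted p = 0.00308) came with central libraries that differed 3.05-fold from each other, and without central library 2 the difference was -2.47. Col13a1, a collagen of adhesion sites and of the neuromuscular junction, stood at 6.48, 6.99, 2.21 and 2.87 CPM. Both anterior libraries were above both central ones, and Col13a1 rose 2.65-fold, the only member to rise by at least 2-fold (log2 1.40 ± 0.26, edgeR adjusted p = 0.0055). It was also the only member still called higher when anterior library 2 was left out. Col25a1, which is needed for motor nerve entry into muscle, stood at 86.5, 113, 83.8 and 57.7 CPM. The groups did not overlap by a small margin, and the difference of 0.49 ± 0.17 did not pass (edgeR adjusted p = 0.0737), although it did without anterior library 1 (0.00861) and without central library 1 (0.0001). Without anterior library 2 it was 0.30 (adjusted p = 0.295) and without central library 2 it was 0.25, which did not pass either.

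None of the 4 collagens that associate with fibril surfaces, Col16a1, Col19a1, Col20a1 and Col22a1, passed edgeR's test, and their adjusted p-values ran from 0.0715 for Col19a1 to 0.436 for Col22a1. Col16a1 was the most abundant, at 20.1, 18.03, 24.9 and 20.0 CPM, and its groups overlapped. Col19a1 stood at 0.780, 0.341, 1.66 and 1.61 CPM, a difference of -1.52 ± 0.53, and passed in the fit without a filter (adjusted p = 0.0415) and without anterior library 1 (0.0493), while without anterior library 2 its adjusted p was 0.328. Col26a1, a secreted collagen with a short triple helix, stood at 221.5, 256, 189 and 183 CPM and rose 1.28-fold (log2 0.36 ± 0.08, edgeR adjusted p = 0.0119). The call was lost without anterior library 2 (adjusted p = 0.133). Col7a1, the anchoring fibril collagen that fastens epidermis to dermis, stood at 11.8, 10.2, 10.7 and 9.27 CPM, with overlapping groups (log2 0.14 ± 0.17, edgeR adjusted p = 0.629). Col28a1 stayed under 1 CPM in every library. The members below the filter were Col4a3, Col4a4, Col5a3, Col6a4, Col6a5 and Col10a1, the last a marker of hypertrophic cartilage, and none had more than 13 counts in a library.

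The central libraries differed from each other in a way that touched particular members. Among tested members, central library 2 was over 1.5 times central library 1 for Col17a1 (3.05 times) and Col4a6 (2.46 times), and the ectoderm list summed to 49.8 CPM in central library 1 and 157 in central library 2. Central library 1 was over 1.5 times central library 2 for 6 members, where the ratio of central 2 to central 1 was 0.353 for Col8a1, 0.389 for Col8a2 and 0.494 for Col20a1, with the others at 0.517 (Col11a2), 0.550 (Col6a2) and 0.662 (Col6a1). The part of ectodermal cells in the levels of Col17a1 and Col4a6 was not tested. For Col3a1, Col1a1, Col5a1, Col4a5, Col23a1 and Col27a1 the ratio of central library 2 to central library 1 lay between 0.842 and 0.940. The ratio of anterior library 2 to anterior library 1 was 0.571 for Col23a1 and between 0.781 and 0.902 for the others.

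Genes that make, process, bind or break down collagen were taken from 5 lists of 83 genes in all, of which 74 were tested, 11 rose and 25 fell, with a median log2 difference of -0.13. That is 48.6% called, 14.9% higher and 33.8% lower, against 22.9%, 10.7% and 12.3% of all genes tested. Among chaperones, hydroxylases and export factors that act within cells, 1 of 24 tested genes rose and 5 fell, with a median of -0.11, and the 25.0% called is near the 22.9% of all genes. Serpinh1, the collagen chaperone of the endoplasmic reticulum, P4hb and the lysyl hydroxylases Plod1, Plod2 and Plod3 did not pass. Pepd, which recycles proline from collagen peptides, rose by a log2 difference of 0.34 ± 0.09 and lost its call without either anterior library (edgeR adjusted p = 0.0849 and 0.109). The largest falls were in the collagen galactosyltransferase Colgalt2 (-3.13 ± 0.49), the prolyl 3-hydroxylase P3h2 (-0.88 ± 0.19) and the prolyl isomerase Fkbp14 (-0.53 ± 0.12). P3h2 lost its call without anterior library 2 (adjusted p = 0.0559) and Fkbp14 without anterior library 1 (0.0763).

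Outside cells, 9 of 19 tested genes for processing, cross-linking and fibril partners fell and 2 rose, with a median of -0.40. The shares were 47.4% lower and 10.5% higher, against 12.3% and 10.7% of all genes. Dcn, Lum and Fmod, the small leucine-rich proteoglycans decorin, lumican and fibromodulin that coat fibrils, had the largest falls, at log2 -3.97 ± 0.45, -3.92 ± 0.22 and -3.51 ± 0.60. Bgn, the related biglycan, had 49.1, 51.3, 22.2 and 22.7 CPM and rose by 1.16 ± 0.09 (edgeR adjusted p = 4.83e-05). Lox and Loxl1, which cross-link collagen and were singled out after their values were seen, also fell. Lox had 0.900, 0.682, 10.3 and 6.58 CPM (log2 -3.40 ± 0.34, edgeR adjusted p = 0.000196), and Loxl1 had 11.3, 10.3, 39.6 and 29.7 CPM (log2 -1.68 ± 0.15, edgeR adjusted p = 0.000121). Neither gene overlapped between the groups. Fmod is also in the tendon list.

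Of 8 tested collagen receptor genes, 3 rose (37.5%, against 10.7% of all genes) and 2 fell (25.0%, against 12.3%). Itga11, the integrin subunit that binds fibrillar collagen on mesenchymal cells, had the largest rise, with 40.4, 31.0, 15.3 and 13.2 CPM (log2 1.33 ± 0.15, edgeR adjusted p = 0.00039). The other rises were in Itga1 (0.88 ± 0.21) and Itgb1 (0.40 ± 0.07), the alpha and beta subunits of an integrin that binds type IV collagen, and both lost their call without anterior library 2 (edgeR adjusted p = 0.0557 and 0.0551). The discoidin receptor Ddr1 fell (-1.28 ± 0.15). Adgrg6, an adhesion receptor that binds type IV collagen, had 0, 0, 34 and 47 counts and was at least 13.3-fold lower in the anterior cells, or 6.66-fold with a floor of 6 counts. Among 9 tested genes for breakdown, the cell-surface protease Fap (-4.22 ± 0.40), Mmp16 (-0.47 ± 0.13) and Timp2 (-0.35 ± 0.08) fell (33.3%, against 12.3% of all genes) and none rose. Mmp16 lost its call without anterior library 1 (edgeR adjusted p = 0.167) or central library 1 (0.108), and Timp2 without anterior library 2 (0.123).

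The partners of type IV collagen in basement membranes moved in both directions, with 5 of 14 tested genes higher (35.7%, against 10.7% of all genes) and 6 lower (42.9%, against 12.3%). All 5 rises are named, a choice made after their values were seen: Lama1, Lamb1 and Lamc1, the chains of the early embryonic laminin, and Nid1 and Nid2, the nidogens that link laminin to type IV collagen. Lama1 had 82.6, 79.7, 31.5 and 47.5 CPM (log2 1.04 ± 0.16, edgeR adjusted p = 0.00235), and the others rose by 0.27 (Lamb1) to 0.42 (Nid2). Lamb1 lost its call without anterior library 1 or 2 (adjusted p = 0.08 and 0.17) and Lamc1 without anterior library 2 (0.0852) or with library size alone (0.0501). Lama5, Lamb2 and Lama2, also singled out after their values were seen, were among the genes that fell. Lama5 had 33.6, 29.9, 58.6 and 123.9 CPM (log2 -1.52 ± 0.28, edgeR adjusted p = 0.0055). Lamb2 had 47.5, 43.8, 62.2 and 68.7 CPM (log2 -0.52 ± 0.09, edgeR adjusted p = 0.00397). Lama2 fell by -0.44 ± 0.13 (edgeR adjusted p = 0.0447). Lamb3 and Lama3, laminin chains of epithelial basement membranes, fell as well, at much lower levels. Lamb3 had 0.0600, 0, 0.779 and 1.30 CPM and Lama3 had 0.120, 0, 1.01 and 1.45 CPM. Lamb3 and Lama3, like Col17a1, were higher in central library 2 than in central library 1, and so was the ectoderm list, whose part was not tested.

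**Figure D5:**
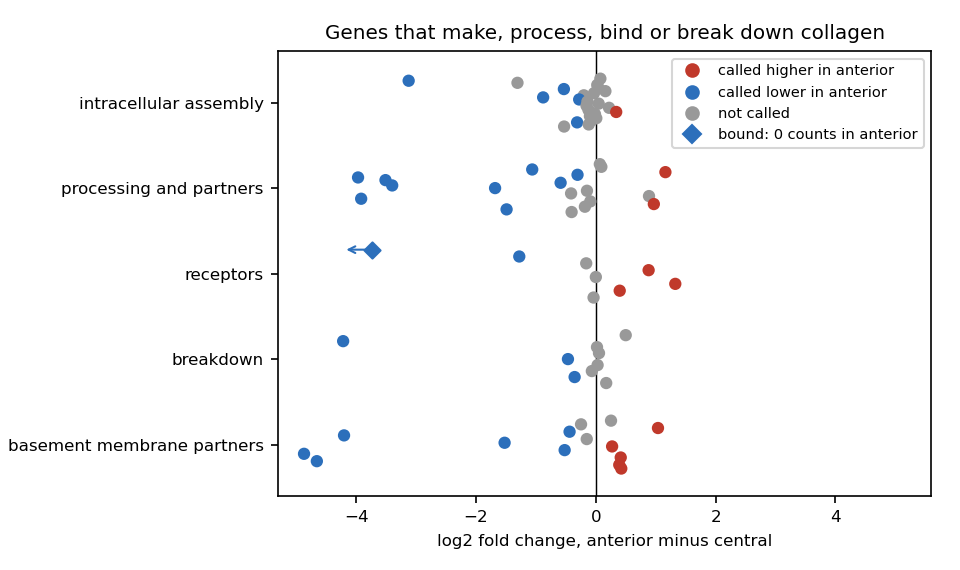
Log2 fold change, anterior minus central, of each tested gene in the 5 lists of collagen assembly, processing, receptors, breakdown and basement membrane partners, coloured by call at an adjusted p of 0.05. The 25 falls and 11 rises are unevenly spread, with 5 of the rises among the basement membrane partners and Adgrg6 drawn as a bound.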

How the data were processed

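The authors deposited whole-number counts per gene, not normalized; STAR 2.7.9a, HTSeq, DESeq2 and the mm10 build are named in the submitters' processing notes, with no roles. The annotation and the use of strand are not given in the sources used here. Even numbers made up 72.8 to 75.6% of counts from 1 to 10, a pattern that arises when both mates are counted, so a fit on halved counts was run. Counts were fitted over all genes with edgeR 4.0.16 (R 4.3.3): filterByExpr left 14610 of 25239 genes, scaling was by TMM, and a quasi-likelihood F test with 2 residual degrees of freedom and Benjamini-Hochberg adjustment was called at 0.05. Standard errors are the log2 difference over the square root of F. CPM are TMM-scaled. An exact permutation test of 2 against 2 libraries cannot go below p = 0.333. Alternatives used DESeq2 1.42.0, limma 3.58.1, other scalings and filters, a replicate block and leaving out libraries. The procedure was tested on simulated data. Gene positions and lengths are from GENCODE M21 (GRCm38), promoter windows from RefSeq (GRCm38.p6).

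Every member is accounted for, with called and abundant members in full. From each of the other lists, the rule names the called gene that rose most and the 3 called genes that fell most, except for 1 gene that is not reported here. Members and lists were chosen with earlier results of these data known.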

Additional observations from a re-analysis of the deposited data

How the results depend on the processing

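Under 10 alternatives to scaling, test, filter, blocking and counting, 24 of the 31 tested collagen genes kept direction and call wherever they were tested, and none reversed in these or when 1 library was left out. Of the 31, 27 were tested in all 10. The members called numbered 18 to 22. Col4a2 lost its call with library size alone (adjusted p = 0.0733), upper-quartile scaling (0.0755), DESeq2 size factors (0.0508) and a mean count of at least 50 (0.0578), and Col4a6 under limma-voom (0.0597). Col6a6 and Col28a1 were not tested on halved counts or with that mean count, nor Col19a1 and Col20a1 with that mean count. With 1 library left out, 15 to 22 members were called, 1 to 5 higher and 14 to 17 lower. Over all genes it was 2009 to 3697, with 809 to 1884 higher and 1200 to 1813 lower, and over the pathway lists 25 to 39, with 6 to 12 higher and 19 to 27 lower. The lowest counts of rises came without anterior library 2. Leaving out a library also removes a residual degree of freedom, and the lone sample of its group is then assumed to vary like the other group. The deviations of same-numbered libraries had a correlation of 0.0722 across genes. With 2 libraries per group, this value cannot decide whether they were paired. Whether a shared number means shared embryos is unknown, and the main fit used no pairs. With the replicate block, 22 members were called, 6 higher and 16 lower, and 3586 genes in all, 1669 higher and 1917 lower. The block added Col6a2 (adjusted p = 0.0173), Col6a3 (0.04) and Col25a1 (0.0384). Of the 30 other genes followed, 28 kept their call wherever tested (26 were tested in all 10), the exceptions being Lamc1 with library size alone and Lama2 under DESeq2's Wald test (0.0547). Levels near 3 counts limit what can be said of the 6 untested members. The floor of 6 counts was chosen after seeing the data.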
